A study of Homo sapiens with 30 samples.

Results

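Oxidative phosphorylation subunits, the proteins that make up the respiratory chain and the ATP synthase, were followed in LX2, an established human cell line with the features of activated hepatic stellate cells, the collagen-producing cells of the liver. Members were protein-coding genes whose symbols name a subunit of complex I (NDUFA, NDUFB, NDUFC, NDUFS, NDUFV and the MT-ND genes), II (SDHA to SDHD), III (UQCR genes and MT-CYB), IV (COX4 to COX8 and the MT-CO genes) or V (ATP5F1, ATP5M, ATP5P and the MT-ATP genes), with a mean level of at least 5 CPM (reads per 1000000 in the library) over the 30 libraries. This gave 90 members of 61597 genes, 77 encoded in the nucleus and 13 in mitochondrial DNA. By complex there were 42 in complex I, 3 in complex II, 10 in complex III, 15 in complex IV and 20 in complex V.

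RNA was read by QuantSeq, a method that sequences a tag near the polyadenylated end of each transcript, so CPM values compare transcripts without a correction for length. Cells were given docosahexaenoic acid (DHA, 22:6 ω3) at 50 µM, oleic acid (OLA, 18:1 ω9) at 50 µM, or the albumin vehicle (Veh) as pretreatment. The fatty acids were carried on 20 µM albumin and given in 2 cycles of 48 h, and the labels also state 96 h with fatty acids after replating. Cells then received betacellulin (BTC, a ligand of ErbB receptors) or no BTC for 72 h in medium with 1% serum, and the labels give the BTC dose as 20 ng/ml in one place and 50 µM in another. The 6 groups, DHA+BTC, DHA+Veh, OLA+BTC, OLA+Veh, Veh+BTC and Veh+Veh, had 5 libraries each, 1 from each of 5 numbered experiments, and a number after a group name is the experiment. All cultures were of 1 cell line, the labels do not say whether experiments were separate passages, so p-values reflect only how far these cultures spread. In bulk RNA from a culture, fewer cells that express a gene and less RNA per cell cannot be told apart.

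Complexes I to IV pass electrons from NADH and succinate to oxygen, and all but complex II pump protons across the inner mitochondrial membrane. Complex V, the ATP synthase, lets the protons flow back and makes ATP. Most subunits are transcribed in the nucleus and imported as proteins, whereas a few core subunits of complexes I, III, IV and V are transcribed as long polycistronic RNAs from mitochondrial DNA and cut into messages, most of which receive poly(A) tails. Complex II is wholly nuclear.

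Libraries held 1245182 to 9490142 reads (median 3683035), and the 3 with the fewest reads all came from DHA groups (experiment 5 with and without BTC, and experiment 4 with BTC). DHA libraries held 1245182 to 4703635 reads and vehicle libraries 2569815 to 9490142. The limit that a count of 0 allows, 3 reads, was 0.316 to 2.41 CPM depending on the library, and this floor covers counting error only. Of 11 stellate markers, 9 reached 1 CPM and LRAT, the retinol-esterifying enzyme of quiescent stellate cells, and DES, an intermediate filament protein, did not. None of the 7 hepatocyte markers reached 1 CPM.

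Control sequences of the members are shown first, because the nuclear members must be transcribed from 77 separate promoters and the mitochondrial members share 1 small genome. RefSeq promoter entries (GRCh38.p14, 250 bases before to 50 after the gene start) matched 61 of the 77 nuclear members. The 3 printed here belong to the called members with the largest falls after DHA among those with an entry, all of complex I. They are given 5′ to 3′ on the strand of the gene, and capitals mark motif matches. NDUFB7 lies at chr19:14572017-14572316 on the minus strand, with 1 SP1 match (GGGCGG, here read on the opposite strand) and 1 ETS match (CCGGAAG). NDUFS7 lies at chr19:1383657-1383956 on the plus strand, with 1 match each for NRF1 (TGCGCA), YY1 (AAGATGG) and SP1. NDUFV1 lies at chr11:67606686-67606985 on the plus strand and held none of the motifs searched.
NDUFB7: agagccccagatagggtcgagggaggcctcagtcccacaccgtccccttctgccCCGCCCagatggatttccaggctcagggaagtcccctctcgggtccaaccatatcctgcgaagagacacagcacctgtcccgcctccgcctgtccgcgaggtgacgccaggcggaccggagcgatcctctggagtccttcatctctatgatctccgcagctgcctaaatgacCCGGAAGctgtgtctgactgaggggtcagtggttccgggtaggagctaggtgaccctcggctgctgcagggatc
NDUFS7: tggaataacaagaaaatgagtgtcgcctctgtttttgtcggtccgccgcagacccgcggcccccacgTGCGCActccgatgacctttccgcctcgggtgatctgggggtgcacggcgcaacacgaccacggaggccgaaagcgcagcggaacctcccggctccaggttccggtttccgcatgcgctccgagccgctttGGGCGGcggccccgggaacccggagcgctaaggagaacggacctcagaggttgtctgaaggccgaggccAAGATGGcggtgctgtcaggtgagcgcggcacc
NDUFV1: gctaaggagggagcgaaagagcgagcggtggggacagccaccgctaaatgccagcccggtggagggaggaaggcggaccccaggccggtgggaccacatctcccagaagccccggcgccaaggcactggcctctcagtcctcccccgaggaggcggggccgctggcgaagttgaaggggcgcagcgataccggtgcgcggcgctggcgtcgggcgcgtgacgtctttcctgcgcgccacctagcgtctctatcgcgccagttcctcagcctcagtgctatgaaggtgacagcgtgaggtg

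Motifs were searched on both strands, and none contains another. NRF1 and the ETS factor GABP are activators known for their sites in promoters of respiratory genes. The NRF1 core TGCGCA was in 18 of the 61 promoters (29.5%), against 8.42% of all 27305 RefSeq promoters. The ETS letters CCGGAAG were in 19 (31.1%), against 10.7%, and the YY1 core AAGATGG in 15 (24.6%), against 6.06%. SP1 letters GGGCGG were in 38 (62.3%), against 44.6%, and CCAAT in 21 (34.4%), against 35.7%. Median GC content was 61.0% in the members' promoters and 58.3% in all promoters. Of the 9 nuclear members that were lower after DHA, 7 had a promoter entry. Of these 7, NDUFS7 held TGCGCA and AAGATGG, NDUFB7 and COX6B1 held CCGGAAG, and NDUFB7, NDUFS7 and ATP5MC2 held GGGCGG. These are matches of letters, not measured binding.

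The mitochondrial members overlap one another, and reads that fall in an overlap can belong to either gene. MT-ATP8 and MT-ATP6, both of complex V, share 46 bases, 22.2% of the 207 bases of MT-ATP8. MT-ND4L and MT-ND4 of complex I share 7. The shared stretches, from the GENCODE v29 transcripts, are shown with the start codon of the downstream gene in capitals.
MT-ATP8 and MT-ATP6: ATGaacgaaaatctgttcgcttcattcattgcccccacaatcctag
MT-ND4L and MT-ND4: ATGctaa

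Copies elsewhere in the annotation also bear on the mitochondrial levels. Of the 50-base windows in the last 500 bases of the transcript, 61.6% occurred unchanged in a copy of the same gene family for MT-CO1, 52.1% for MT-ATP6, 44.3% for MT-ND1, 39.7% for MT-ND2, 24.2% for MT-CO2 and 23.5% for MT-CO3. The share was 0 for MT-CYB, MT-ND3 and MT-ND4L. Among nuclear members UQCRH and its close copy UQCRHL shared 36.1% of windows of UQCRH, and COX6A1 shared 36.8% with the pseudogene COX6A1P2. These are shares of windows, not of reads, and how far they make the levels of these genes uncertain was not measured. Whether counting used strand is not given in the sources used here.

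The mitochondrial messages, though cut from shared precursors, differed widely in level. Over 30 libraries MT-CO3, a core subunit of complex IV, averaged 8807 CPM, the highest of all members. MT-ND3 averaged 3985 CPM, MT-CO2 2644, MT-CYB 2077, MT-ATP6 2071 and MT-ND4 1545. Lower levels were found for MT-ND1 (360 CPM), MT-CO1 (341), MT-ND2 (274), MT-ND5 (269), MT-ND4L (186) and MT-ATP8 (177). MT-ND6, the member read from the other mitochondrial strand, was lowest at 77.5 CPM. A 3′ tag method counts a message through its poly(A) tail, so these values count reads near tagged ends. MT-ATP8 and MT-ND4L run into the next gene, MT-ATP6 and MT-ND4. Their reads therefore need not be ends of separate messages, and their origin was not tested.

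Among nuclear members the highest were ATP5MG of the ATP synthase membrane part (2409 CPM), UQCRQ of complex III (1515) and NDUFS6 of complex I (1489). ATP5F1E and ATP5PO of complex V averaged 930 and 814 CPM, and the complex IV subunits COX4I1 and COX7C 695 and 664 CPM. Complex II, with 3 members, had the lowest summed transcript level. Its median member was at 86.1 CPM, near the 99.1 CPM of nuclear complex III members. SDHA, the flavoprotein that oxidises succinate, averaged 249 CPM, the membrane anchor SDHC 86.1 CPM and the iron-sulfur subunit SDHB 20.6 CPM. The other membrane anchor, SDHD, was just under the threshold at 2.04 CPM.

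Paralogs were unequal. The ubiquitous COX4I1 was at 695 CPM and the lung-type, hypoxia-linked COX4I2 was at 0 reads in every library. COX7A2 averaged 469 CPM, COX7A2L, a supercomplex assembly protein, 182 CPM and the muscle-type COX7A1 23.8 CPM. COX6A1 averaged 112 CPM with the muscle-type COX6A2 at 0 reads, and COX6B1 212 CPM against 0.784 CPM for the testis-type COX6B2. The 3 genes for the identical mature c subunit of the ATP synthase rotor were closer together, with 414 CPM for ATP5MC1, 623 for ATP5MC2 and 497 for ATP5MC3. NDUFA4, named with complex I but found in complex IV, averaged 52.9 CPM against 0.193 CPM for its hypoxia-induced paralog NDUFA4L2.

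The symbol pattern matched 279 rows, 101 of them protein-coding, and 11 of those fell under 5 CPM. The members just inside were UQCRHL (7.49 CPM), NDUFB6 (20.1), SDHB (20.6) and NDUFA5 (21.5), and the genes just outside were SDHD (2.04), NDUFV2 (1.43) and NDUFA7 (0.941). NDUFV2 encodes a core subunit of complex I, and the pseudogene NDUFV2P1 averaged 38.8 CPM in the same libraries. Besides COX4I2 and COX6A2, the read-through genes NDUFC2-KCTD14 and ATP5MF-PTCD1 had 0 reads in every library. All 90 members passed the filter of 1 CPM in at least 5 libraries and were tested.

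**Figure D1:**
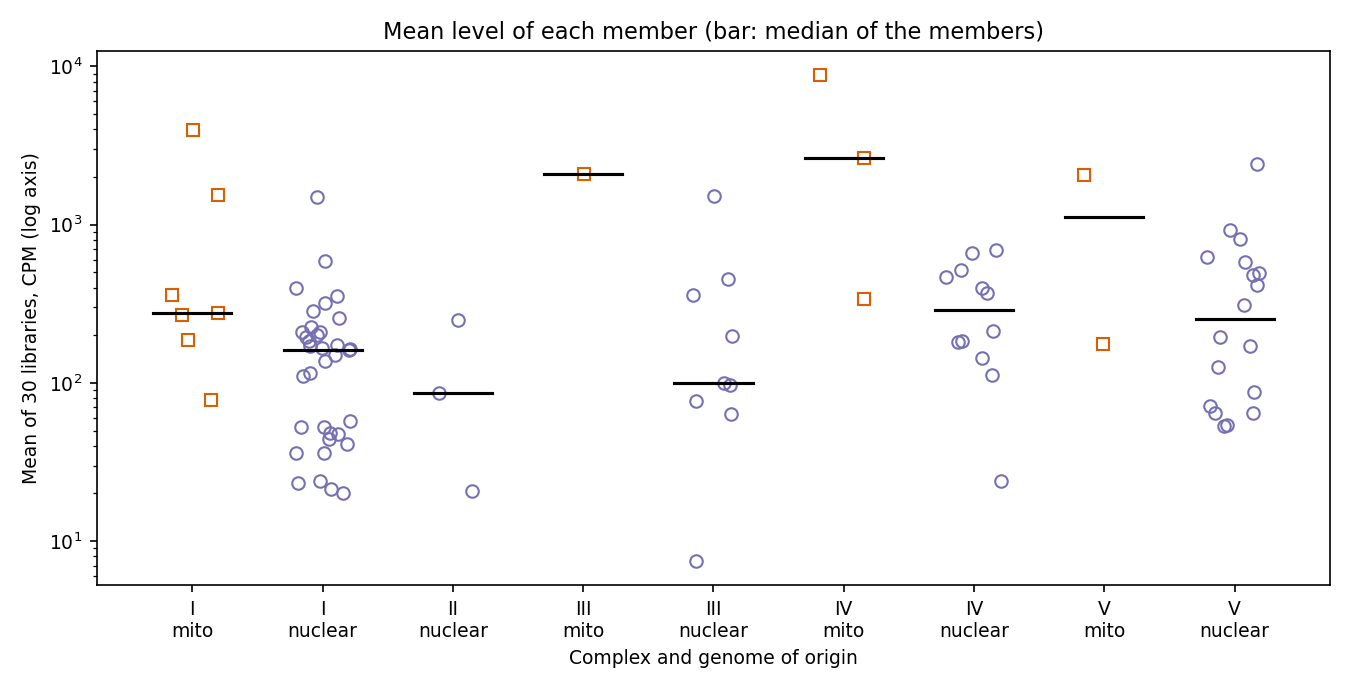
Mean level of each of the 90 members over 30 libraries in CPM (log axis), by complex and by the genome that encodes it, with a bar at the median of the members. Points run from UQCRHL at 7.49 CPM to MT-CO3 at 8807 CPM, and in complexes I, III, IV and V the median of the mitochondrial members is above that of the nuclear members.

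Summed over its genes, each complex took a different share from the 2 genomes. Complex I had 6697 ± 1577 CPM from 7 mitochondrial genes and 6762 ± 1790 CPM from 35 nuclear genes (SD, n = 30 libraries). In complex IV the 3 mitochondrial genes gave 11792 ± 3314 CPM and the 12 nuclear genes 3965 ± 1184 CPM. In complex V the order was the opposite, with 2248 ± 660 CPM from 2 mitochondrial genes and 7947 ± 1622 CPM from 18 nuclear genes. Complex III had 2077 ± 418 CPM from MT-CYB and 2868 ± 649 CPM from 9 nuclear genes, and complex II 356 ± 69.6 CPM.

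By pretreatment, with and without BTC together (n = 10 libraries each), the 13 mitochondrial members summed to 21244 ± 3803 CPM after DHA, 22176 ± 3578 CPM after oleic acid and 25021 ± 5833 CPM after vehicle. The 77 nuclear members summed to 21334 ± 5486 CPM after DHA, 22813 ± 5581 CPM after oleic acid and 21543 ± 4532 CPM after vehicle. The lowest, median and highest ratios of mitochondrial to nuclear sum were 0.747, 0.956 and 1.53 after DHA, 0.664, 1.05 and 1.28 after oleic acid, and 0.912, 1.06 and 1.59 after vehicle. The ranges overlapped widely in all 3 sets.

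Within experiments the nuclear sum differed little between pretreatments. On the log2 scale, the mean of 5 within-experiment differences was -0.03 ± 0.10 for DHA minus vehicle (higher in 3 and lower in 2 experiments), 0.07 ± 0.08 for oleic acid minus vehicle (higher in 5 of 5) and -0.10 ± 0.10 for DHA minus oleic acid (lower in 4 of 5). With median-of-ratios scaling in place of library totals, DHA minus vehicle was 0.10 and DHA minus oleic acid 0.02, so the sign of both rests on the scaling.

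The mitochondrial sum varied more. It differed by -0.22 ± 0.29 for DHA minus vehicle (lower in 3 of 5 experiments), by -0.16 ± 0.23 for oleic acid minus vehicle (lower in 5 of 5) and by -0.07 ± 0.28 for DHA minus oleic acid. Experiment 3 had the largest oleic acid difference, at -0.57, and experiments 1, 2, 4 and 5 gave -0.07, -0.03, -0.02 and -0.08. The log2 ratio of mitochondrial to nuclear sum was -0.19 ± 0.31 for DHA minus vehicle and -0.23 ± 0.31 for oleic acid minus vehicle, lower in 3 and in 5 of 5 experiments. For BTC minus no BTC the log2 difference was 0.00 ± 0.23 in the mitochondrial sum and -0.02 ± 0.03 in the nuclear sum. These sums are descriptions without a test, and each of these differences is smaller than its SD over experiments.

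**Figure D2:**
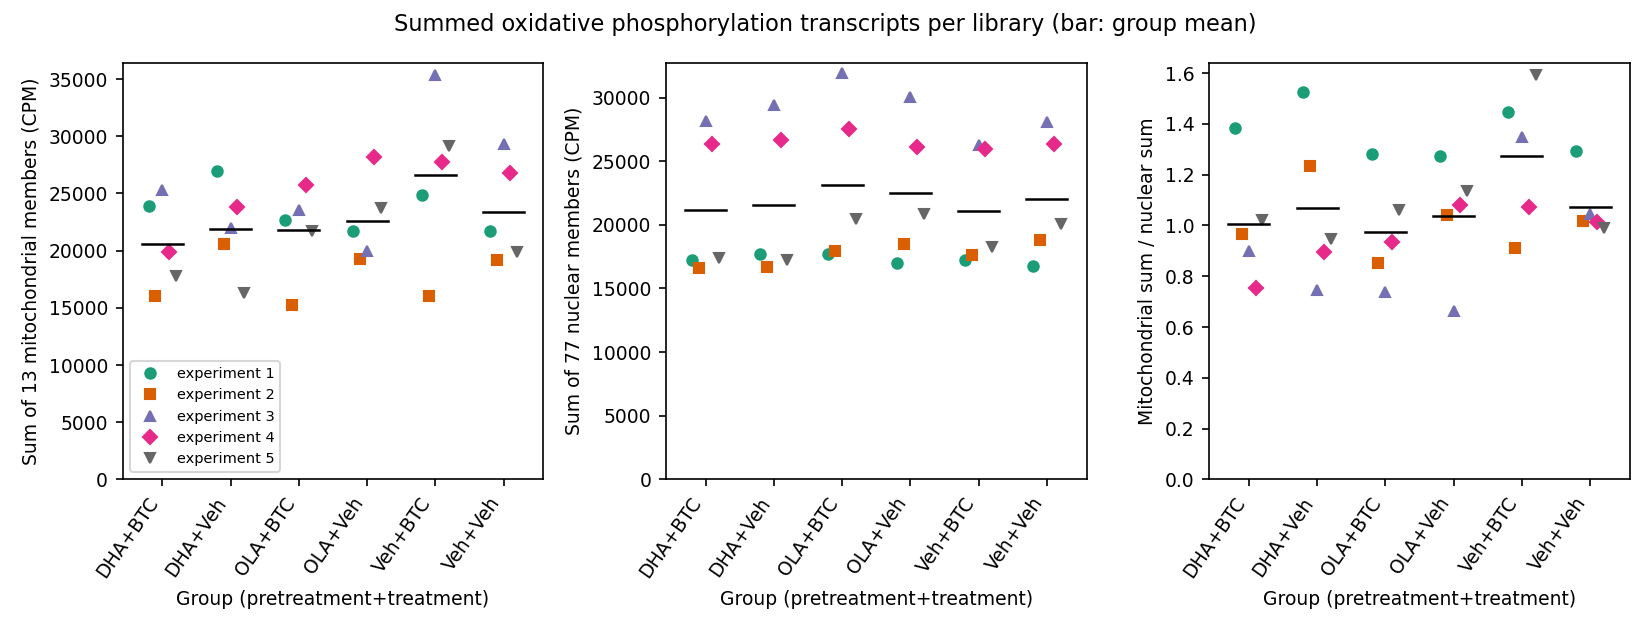
Summed CPM of the 13 mitochondrial members (left), of the 77 nuclear members (middle) and their ratio (right) in each library, by group (5 libraries each, bar at the mean), with a marker for each experiment. In the middle panel experiments 3 and 4 lie above the other 3 in every group, and in the left panel Veh+BTC 3, at 35404 CPM, is the highest library.

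MT-CO3 alone made up 35.2 ± 7.4% of the mitochondrial sum after DHA, 38.2 ± 5.7% after oleic acid and 41.9 ± 8.0% after vehicle (SD, n = 10). Its highest share was 62.0%, in Veh+BTC 5. The mitochondrial ribosomal RNAs, which lie upstream of the protein genes on the same heavy-strand transcripts, were also measured. MT-RNR2 had a median of 2570 CPM after DHA, 2980 CPM after oleic acid and 2861 CPM after vehicle.

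DHA against vehicle, averaged over BTC, asked what the ω3 fatty acid did to each subunit gene. After DHA 9 of the 77 nuclear members were lower and none was higher (11.7%), while over all 15137 genes tested 10.7% were called in either direction, 8.38% lower and 2.33% higher. The share of nuclear members called was close to that background. Calls are those with an adjusted p under 0.05 in limma, with the experiment as a block and differences on the log2(CPM + 1) scale. The median difference was -0.07 in nuclear members, 0.00 in mitochondrial members and -0.13 over all genes tested. With median-of-ratios scaling the nuclear median was 0.06, with 1 member higher (UQCRH) and 4 lower in place of 0 and 9.

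The 9 were spread over complexes I (4 of 35), IV (2 of 12) and V (3 of 18), with 0 of 3 in complex II and 0 of 9 in complex III. NDUFB7, an accessory subunit on the intermembrane side of complex I, had the largest fall. Its lowest, median and highest values were 20.1, 74.7 and 218 CPM in DHA libraries, against 43.0, 165 and 737 CPM in vehicle libraries. It was lower in 9 of 10 pairs of libraries from the same experiment and BTC condition, and the ranges overlapped. The log2 difference was -0.998 (SE 0.21, adjusted p = 0.00241).

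NDUFV1 carries the flavin that takes electrons from NADH. It had 52.2, 147 and 245 CPM in DHA libraries, against 93.6, 195 and 521 CPM in vehicle libraries, as lowest, median and highest. It was lower in 9 of 10 pairs with overlapping ranges, at a log2 difference of -0.62 (SE 0.15, adjusted p = 0.00575). NDUFS7, which holds the last iron-sulfur cluster before ubiquinone, had 14.5, 32.8 and 66.0 CPM in DHA libraries, against 16.3, 50.9 and 151 CPM in vehicle libraries. It was lower in 9 of 10 pairs at -0.64 (SE 0.17, adjusted p = 0.0149). NDUFA11, an accessory subunit of the membrane arm, had 125, 272 and 520 CPM in DHA libraries, against 144, 426 and 762 CPM in vehicle libraries, a difference of -0.52 (SE 0.13, adjusted p = 0.00847), lower in 9 of 10 pairs. NDUFS8, another iron-sulfur subunit, was not called, at -0.40 (adjusted p = 0.0657).

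In complex IV the called members were COX7A1 and COX6B1. COX7A1 was the lowest of the complex IV members, with 2.41, 9.80 and 44.8 CPM in DHA libraries, against 7.06, 15.5 and 58.0 CPM in vehicle libraries. DHA gave the lower value in 10 of 10 pairs, at -0.74 (SE 0.20, adjusted p = 0.0129). COX6B1, on the intermembrane side of the complex, had 94.0, 161 and 314 CPM in DHA libraries, against 126, 207 and 355 CPM in vehicle libraries. DHA gave the lower value in 8 of 10 pairs, at -0.40 (SE 0.12, adjusted p = 0.0327). Their ranges overlapped between DHA and vehicle.

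In complex V, ATP5F1D, the delta subunit of the central stalk, had 9.64, 29.8 and 71.8 CPM in DHA libraries, against 17.7, 43.9 and 131 CPM in vehicle libraries. It was lower in 9 of 10 pairs, at -0.75 (SE 0.18, adjusted p = 0.00682). The c subunit genes ATP5MC2 and ATP5MC1 differed by -0.44 (SE 0.12, adjusted p = 0.0183) and -0.43 (SE 0.13, adjusted p = 0.0253), lower in 10 and 9 of 10 pairs. ATP5MC2 had 263, 505 and 729 CPM in DHA libraries, against 396, 606 and 1040 CPM in vehicle libraries, and ATP5MC1 had 194, 298 and 568 CPM in DHA libraries, against 210, 479 and 642 CPM in vehicle libraries. The third c subunit gene, ATP5MC3, was not called, at -0.24 (adjusted p = 0.278). ATP5MG, the highest nuclear member, was at 0.30 (adjusted p = 0.111).

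Complexes II and III had no called nuclear member. SDHA differed by -0.26 (adjusted p = 0.189), SDHB by 0.51 (SE 0.24, adjusted p = 0.187) and SDHC by 0.17 (SE 0.43, adjusted p = 0.856). UQCRH, the hinge protein of complex III, was at 0.32 (adjusted p = 0.062) and higher in 5 of 5 experiments. It passed the threshold with median-of-ratios scaling and in edgeR.

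Of the 13 mitochondrial members 1 was lower and 1 higher. MT-CO3 had 5912, 6832 and 9995 CPM in DHA libraries, against 6513, 9788 and 18058 CPM in vehicle libraries, lower in 8 of 10 pairs. The highest vehicle values came from Veh+BTC 5 and Veh+BTC 3 (16561 CPM). Its log2 difference was -0.48 (SE 0.16, adjusted p = 0.0469). MT-ND5, a proton-pumping subunit of complex I, had 240, 322 and 407 CPM in DHA libraries, against 135, 256 and 405 CPM in vehicle libraries, and was higher in 10 of 10 pairs by 0.35 (SE 0.11, adjusted p = 0.0432). Beside these, MT-ATP8 was at -0.66 (adjusted p = 0.0848) and MT-ND2 at 0.43 (adjusted p = 0.159), so genes read from the same strand had estimates of either sign. MT-ND6, read from the other strand, was at 0.30 (adjusted p = 0.303).

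**Figure D3:**
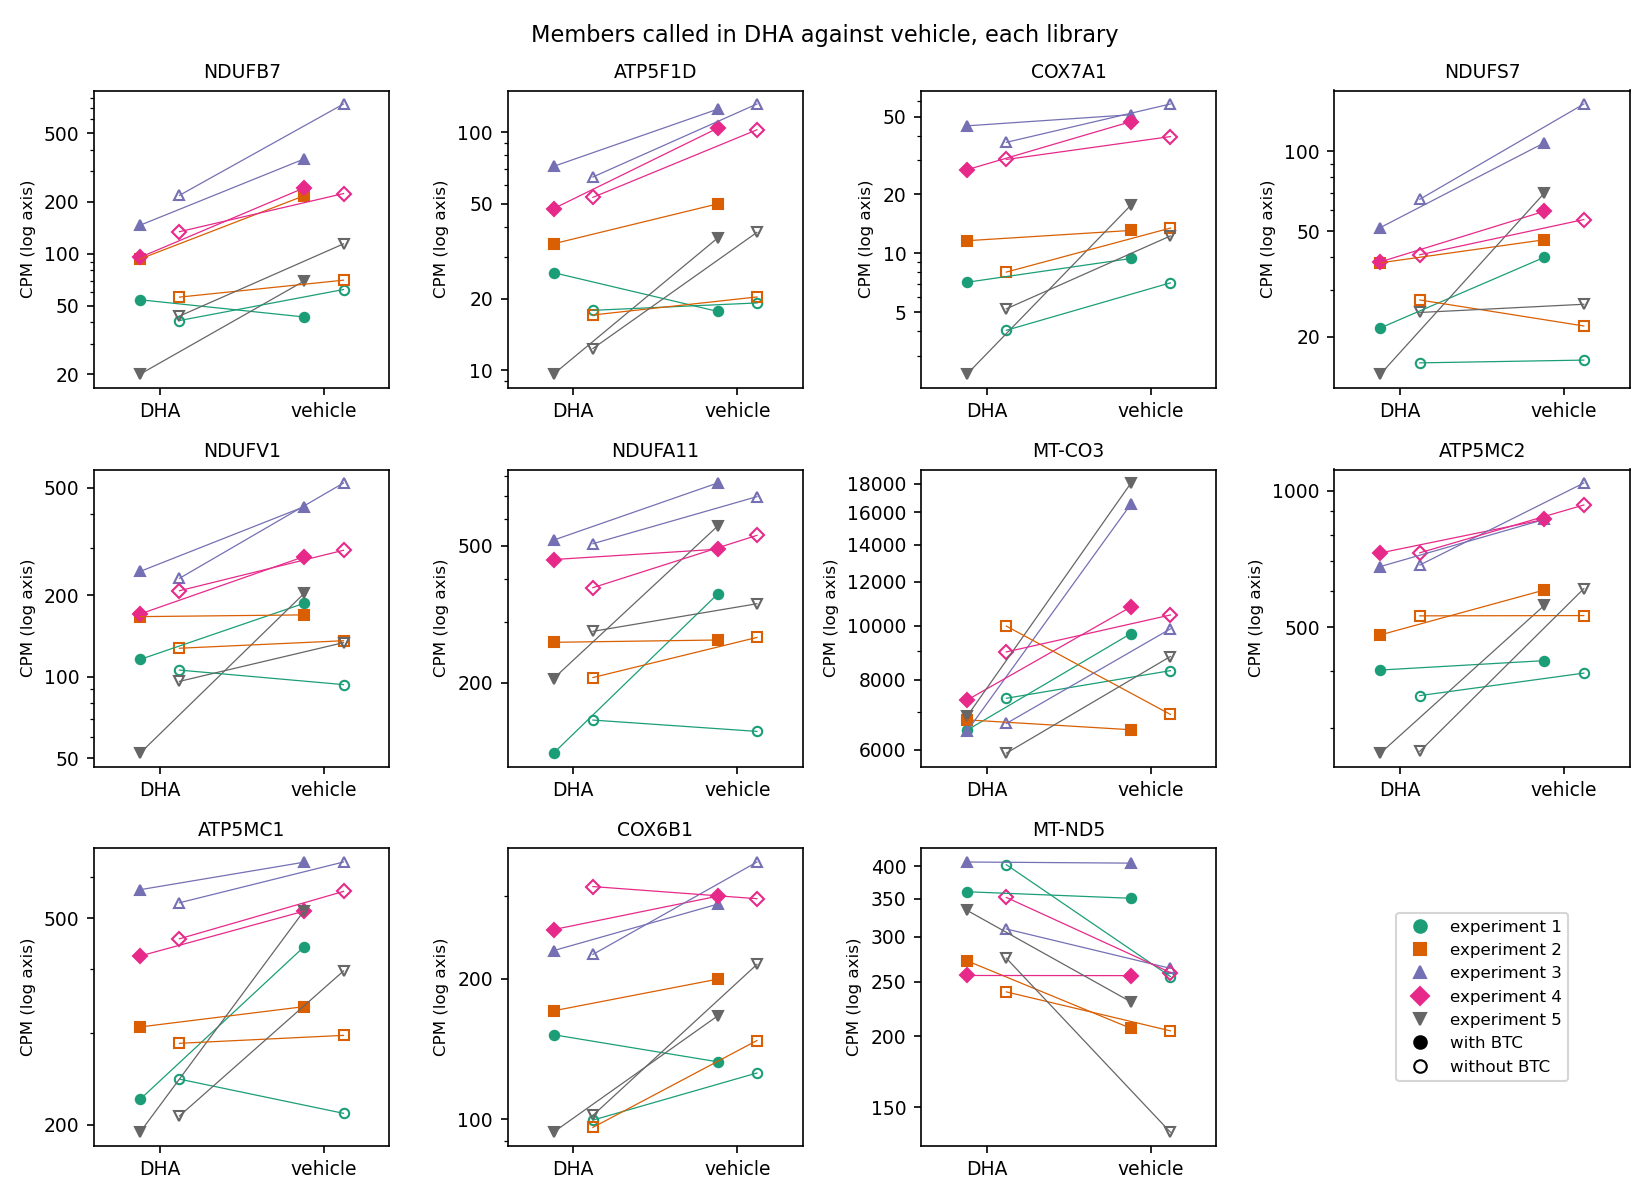
CPM (log axis) of the 11 members called in DHA against vehicle, each library as a point, with lines joining the DHA and vehicle libraries of an experiment with BTC (filled) or without it (open). NDUFB7 reaches 737 CPM in vehicle experiment 3 and 20.1 CPM in DHA experiment 5, and for MT-ND5 all 10 lines run lower on the vehicle side.

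The calls changed with the libraries included. Without the 3 shallowest libraries, DHA+BTC 5, DHA+Veh 5 and DHA+BTC 4, none of the 11 was called, and the smallest adjusted p was 0.0563, for NDUFA11. With each library left out in turn, NDUFB7, NDUFV1, NDUFA11, NDUFS7, COX7A1 and ATP5F1D were called in 30 of 30 fits. Of these, NDUFA11 and NDUFS7 lost the call with median-of-ratios scaling, and NDUFA11 and COX7A1 in edgeR. COX7A1 and NDUFS7 lost it with quantile normalization, COX7A1 with libraries averaged over BTC and NDUFS7 with only the groups compared. ATP5MC2 was not called without DHA+Veh 5 (adjusted p = 0.0509). ATP5MC1 was not called without Veh+BTC 1, Veh+Veh 4, or any DHA or vehicle library of experiment 5 (adjusted p up to 0.0676). COX6B1 was not called without DHA+Veh 2, Veh+BTC 2, DHA+BTC 3, Veh+Veh 3, DHA+BTC 4, or any DHA or vehicle library of experiment 5 (up to 0.0832). MT-CO3 was called in 7 of 30 such fits, those without Veh+BTC of experiment 1, 2 or 4, OLA+Veh of experiment 3 or 5, or either DHA library of experiment 2, and reached an adjusted p of 0.112 in the others.

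MT-ND5 was called in 16 of 30 such fits. It was lost (adjusted p up to 0.105) without DHA+Veh, OLA+Veh, Veh+BTC or Veh+Veh of experiment 1, Veh+BTC of experiment 2, DHA+BTC, OLA+BTC or Veh+Veh of experiment 3, DHA+Veh or Veh+BTC of experiment 4, or any DHA or vehicle library of experiment 5. Leaving out a whole experiment kept the call of NDUFB7 in 5 of 5 fits (adjusted p up to 0.0367). NDUFA11 was lost without experiment 5 (0.0645) and NDUFV1 without experiment 3 (0.0595). The calls of NDUFS7, ATP5F1D, ATP5MC1 and ATP5MC2 were lost without experiment 3, 4 or 5, that of COX7A1 without experiment 4 or 5, and that of COX6B1 without experiment 2, 3 or 5. MT-CO3 was called without experiment 2 only, and MT-ND5 in none of these 5 fits.

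DHA against oleic acid compared the fatty acids at the same dose and times and uses the same DHA libraries, so its values stand beside the first comparison and add no separate test of DHA. Of the nuclear members 11 of 77 were lower and none higher (14.3%), against 11.4% of all genes called in either direction and 8.96% lower and 2.40% higher. The median difference was -0.14 in nuclear members, 0.08 in mitochondrial members and -0.17 over all genes. With median-of-ratios scaling 5 nuclear members were lower and 2 higher, and in edgeR 3 were lower and 2 higher. The 2 higher members were UQCRH and ATP5MGL with both, at 0.29 (adjusted p = 0.0915) and 0.76 (adjusted p = 0.0545) in limma on CPM. By complex, 6 of 35 were lower in complex I, 2 of 12 in complex IV and 3 of 18 in complex V, with 0 of 3 in complex II and 0 of 9 in complex III.

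NDUFB7 had 20.1, 74.7 and 218 CPM in DHA libraries, against 83.0, 150 and 409 CPM in oleic acid libraries. It was lower in 10 of 10 pairs with overlapping ranges, at -1.11 (SE 0.21, adjusted p = 0.000914). ATP5F1D had 9.64, 29.8 and 71.8 CPM in DHA libraries, against 26.9, 42.8 and 106 CPM in oleic acid libraries, again lower in 10 of 10 pairs, at -0.90 (SE 0.18, adjusted p = 0.00163). COX7A1 was also lower, at -0.78 (adjusted p = 0.00956), as were NDUFV1 at -0.61 (0.00677), NDUFS7 at -0.55 (0.0356), COX6B1 at -0.50 (0.00793), NDUFA11 at -0.47 (0.0164) and ATP5MC2 at -0.43 (0.02). The members called here and not against vehicle were NDUFB2, a membrane-arm subunit, at -0.39 (adjusted p = 0.00886), NDUFS8 at -0.43 (0.0436) and ATP5MC3 at -0.43 (0.0413). Against vehicle, NDUFB2 was at -0.22 (adjusted p = 0.15), and ATP5MC1, called there, was not called here.

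MT-ND5 was the mitochondrial member called, with 240, 322 and 407 CPM in DHA libraries, against 157, 224 and 302 CPM in oleic acid libraries. It was higher in 10 of 10 pairs, by 0.49 (SE 0.11, adjusted p = 0.00602). Leaving out single libraries kept the calls of NDUFB7, ATP5F1D, MT-ND5, NDUFV1, COX6B1, NDUFB2, COX7A1 and NDUFA11 in 30 of 30 fits. Of these, NDUFA11 and NDUFB2 lost the call with median-of-ratios scaling, and NDUFA11, NDUFB2, COX6B1 and NDUFV1 in edgeR. COX7A1 lost it with quantile normalization, and COX7A1 and NDUFB2 with libraries averaged over BTC. ATP5MC2 was lost without OLA+Veh 5 or DHA+Veh 5 (adjusted p up to 0.0579). NDUFS8 was called in 17 of 30 fits and lost (adjusted p up to 0.102) without either oleic acid library of experiment 1, 2 or 5, either DHA library of experiment 5, DHA+Veh or OLA+Veh of experiment 3, or DHA+Veh, OLA+Veh or Veh+Veh of experiment 4. NDUFS7 was called in 19 of 30 fits and lost (up to 0.0834) without DHA+Veh or OLA+BTC of experiment 1, OLA+BTC of experiment 2, either DHA library of experiment 3, any DHA or oleic acid library of experiment 4, or DHA+BTC or OLA+Veh of experiment 5. ATP5MC3 was called in 19 of 30 fits and lost (up to 0.113) without DHA+BTC or OLA+BTC of experiment 2, DHA+BTC or either oleic acid library of experiment 3, either DHA library or OLA+BTC of experiment 4, or either DHA library or OLA+Veh of experiment 5. Of the 12 members called, 10, 11, 7, 4 and 2 kept the call without experiment 1, 2, 3, 4 and 5, respectively. Without experiment 5, those 2 were NDUFB7 and ATP5F1D. Without the 3 shallowest libraries the calls of NDUFB7 and MT-ND5 remained.

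Oleic acid against vehicle called none of the 90 members and 0% of all genes in limma, and edgeR on the recovered reads also called none. At an unadjusted p under 0.05 limma had 0 nuclear and 0 mitochondrial members among 302 genes (2.00% of all tested). In edgeR there were 0 nuclear and 1 mitochondrial among 278 (1.84%). The nuclear median was 0.08, with 57 of 77 estimates positive, and the mitochondrial median -0.08, with 9 of 13 negative, against 0.02 over all genes. The smallest p-values belonged to ATP5PB, in the peripheral stalk of the ATP synthase, at 0.23 (95% interval -0.02 to 0.47), to UQCRB of complex III at 0.21 (-0.02 to 0.45) and to MT-ATP8 at -0.46 (-0.97 to 0.06). Their adjusted p was 1.0 in limma, and intervals of this width do not show that oleic acid left the genes unchanged.

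BTC against no BTC called none of the 90 members and 0% of all genes in limma and none in edgeR. At an unadjusted p under 0.05 limma had 4 of 77 nuclear members, all lower, and 0 of 13 mitochondrial. Over all genes tested there were 609 (4.02%). In edgeR the counts were 2 and 0 among 484 genes (3.20%). The 4 were the complex I subunits NDUFB5 at -0.42 (95% interval -0.79 to -0.05), NDUFS4 at -0.26 (-0.50 to -0.02) and NDUFC1 at -0.44 (-0.86 to -0.03), and COX6A1 at -0.18 (-0.36 to -0.01), each with an adjusted p of 0.994. Mitochondrial members ranged from -0.24 to 0.12. The nuclear median was -0.03, the mitochondrial median 0.00 and the median of all genes -0.02.

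Whether a fatty acid difference depended on BTC was tested by interaction terms, which called none of the 90 members and 0% of all genes in limma or edgeR. For DHA and BTC, 2 nuclear members and 1 mitochondrial member had an unadjusted p under 0.05 in limma, among 527 genes (3.48% of all tested). In edgeR the counts were 0 and 2 among 427 (2.82%). For oleic acid and BTC, limma had 15 nuclear members (12 positive, 3 negative) and 2 mitochondrial among 1279 genes (8.45%), and edgeR 10 and 2 among 1269 (8.38%). The largest term by p in both was MT-ATP8, at -1.64 (95% interval -2.67 to -0.62, adjusted p = 0.584) for oleic acid and -1.19 (-2.22 to -0.17, adjusted p = 0.983) for DHA. Both terms share the libraries Veh+BTC and Veh+Veh. MT-ATP8 had 484, 255, 606, 114 and 35.7 CPM in Veh+BTC 1 to 5, against 222, 190, 195, 86.2 and 11.4 CPM in Veh+Veh 1 to 5. The BTC library was the higher one in all 5 experiments. In oleic acid cultures MT-ATP8 had 394, 195, 123, 40.4 and 8.51 CPM in OLA+BTC 1 to 5, against 257, 297, 151, 90.6 and 28.7 CPM in OLA+Veh 1 to 5, higher with BTC in experiment 1 and lower in the other 4.

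Experiments differed in far more members than treatments did. An F test of the experiment term called 68 of 77 nuclear and 12 of 13 mitochondrial members in limma, against 71.4% of all genes tested. The experiment accounted for a median of 64.3% of the variance in nuclear members, 60.0% in mitochondrial members and 47.7% over all genes, and the group for 12.4%, 6.35% and 11.3%. Across experiments 1 to 5 the nuclear sum was 17283 ± 357, 17687 ± 913, 28975 ± 1949, 26497 ± 567 and 19043 ± 1613 CPM (SD, n = 6 each). The mitochondrial sum was 23646 ± 2058, 17719 ± 2208, 25917 ± 5644, 25366 ± 3120 and 21419 ± 4626 CPM. The ratio of mitochondrial to nuclear sum was 1.37 ± 0.103, 1.00 ± 0.132, 0.907 ± 0.256, 0.958 ± 0.124 and 1.13 ± 0.238.

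Experiment 3 was most often the highest for both genomes, with 42 of 77 nuclear and 6 of 13 mitochondrial members, and 5 mitochondrial members were highest in experiment 1. Over all 15137 genes tested, 2017 were highest in experiment 3, 3606 in experiment 1 and 5830 in experiment 2. Of the nuclear members 30 were lowest in experiment 1 and 25 in experiment 5. Of the mitochondrial members 8 were lowest in experiment 5 and 5 in experiment 2, and none was lowest in experiment 1. Over all 15137 genes tested, 1681 were lowest in experiment 1, 1489 in experiment 2 and 3266 in experiment 5. COX4I1 had 463 ± 96, 444 ± 49, 977 ± 90, 941 ± 78 and 648 ± 65 CPM in experiments 1 to 5 (SD, n = 6), and UQCRQ 954 ± 96, 1024 ± 114, 2335 ± 281, 2093 ± 166 and 1170 ± 248 CPM. The nuclear members NDUFS1 and UQCRB, named here after their values were seen, ran the other way: NDUFS1, the largest core subunit of complex I, had 62.4 ± 5.8 CPM in experiment 1 and 25.6 ± 3.6 CPM in experiment 3. UQCRB had 621 ± 85 CPM in experiment 1 and 324 ± 77 CPM in experiment 3.

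MT-ATP8 had the widest range, 4.34 on the log2 scale between the highest and the lowest experiment mean. It had 297 ± 115, 222 ± 44, 265 ± 176, 83.0 ± 42.0 and 16.4 ± 12.7 CPM in experiments 1 to 5, while MT-ATP6, with which it shares bases, had 2651 ± 688, 1607 ± 512, 2307 ± 533, 2118 ± 224 and 1673 ± 153 CPM. Members lower after DHA also varied widely between experiments. COX7A1 ranged over 2.56 and had 7.60 ± 2.70, 11.8 ± 2.3, 48.2 ± 7.2, 39.3 ± 9.0 and 12.3 ± 7.0 CPM, and NDUFB7 ranged over 2.47 with 61.2 ± 18.9, 112 ± 60, 373 ± 205, 193 ± 62 and 80.8 ± 47.3 CPM. The 10 members for which no experiment difference was called included MT-CO3, SDHB, COX5A and ATP5F1E.

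**Figure D4:**
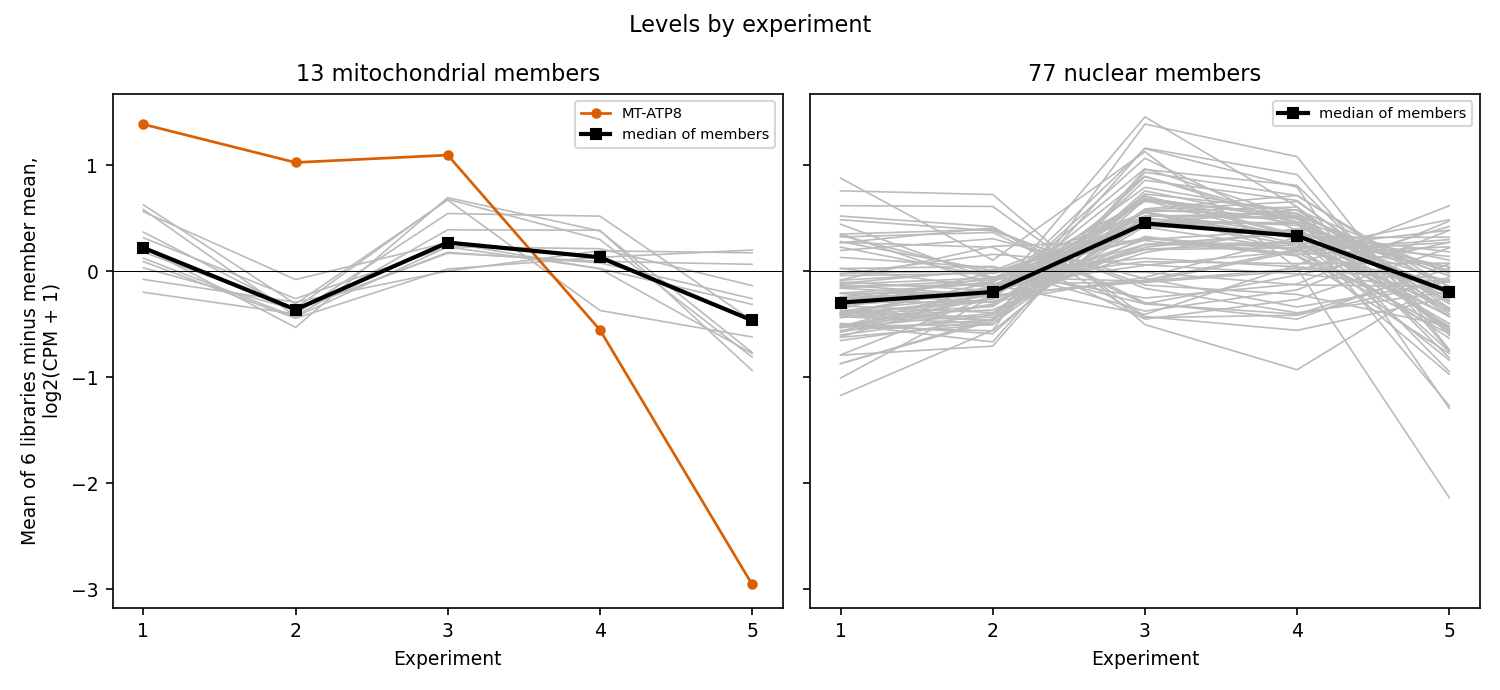
Mean level of each member in experiments 1 to 5 (6 libraries each), as the difference from the member's own mean on the log2(CPM + 1) scale, for 13 mitochondrial (left) and 77 nuclear members (right), with the median of the members in black. Among the mitochondrial members MT-ATP8 falls furthest in experiment 5, and the nuclear median is highest in experiment 3 while the mitochondrial median is lowest in experiment 5.

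The base composition of the transcript ends moved with these differences. GC content was read from the last 500 bases of a GENCODE v29 transcript (the whole transcript where shorter), the region a 3′ tag comes from. Across the 77 nuclear members, GC content and the difference between experiment 3 and experiment 1 had a Pearson r of 0.66, and over 14865 genes tested r was 0.59. A slope on GC was also taken within each library, for levels relative to each gene's own mean over the libraries. It was negative in all 12 libraries of experiments 1 and 2 and positive in all 12 of experiments 3 and 4. In experiment 5 it ran from -0.02 (OLA+Veh 5) to 0.25 (Veh+BTC 5) log2 per 10 points of GC. These signs are relative between libraries and do not say that GC-rich genes were low or high in level. These correlations are over genes, which share the libraries, and describe these samples.

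The nuclear members called lower after DHA had GC-rich ends, a feature looked at after the calls were known. The 9 had 53.6 to 70.2% GC with a median of 62.0%, and the 68 not called a median of 42.6%, close to the 42.4% of all genes tested. At 55% GC or more, 6 of 13 nuclear members were lower (46.2%), against 12.4% of 2500 genes tested. From 45 to 55% GC, 3 of 22 were lower (13.6%), against 7.72% of all such genes, and under 45% none of 42, against 7.66%. Across nuclear members the DHA difference and GC content had r = -0.55 and Spearman's rho = -0.42 (n = 77), while over all genes r was -0.02 (n = 14865). After adjusting each library for its trend with GC content, 10 of the 11 members called with DHA were still called, MT-ND5 was not (adjusted p = 0.0541), and NDUFS8 was added. Because the DHA difference had almost no relation to GC content over all genes, that adjustment could shift DHA differences only a little. It does not address the relation seen within the nuclear members. The part of base composition in the DHA differences was not tested.

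**Figure D5:**
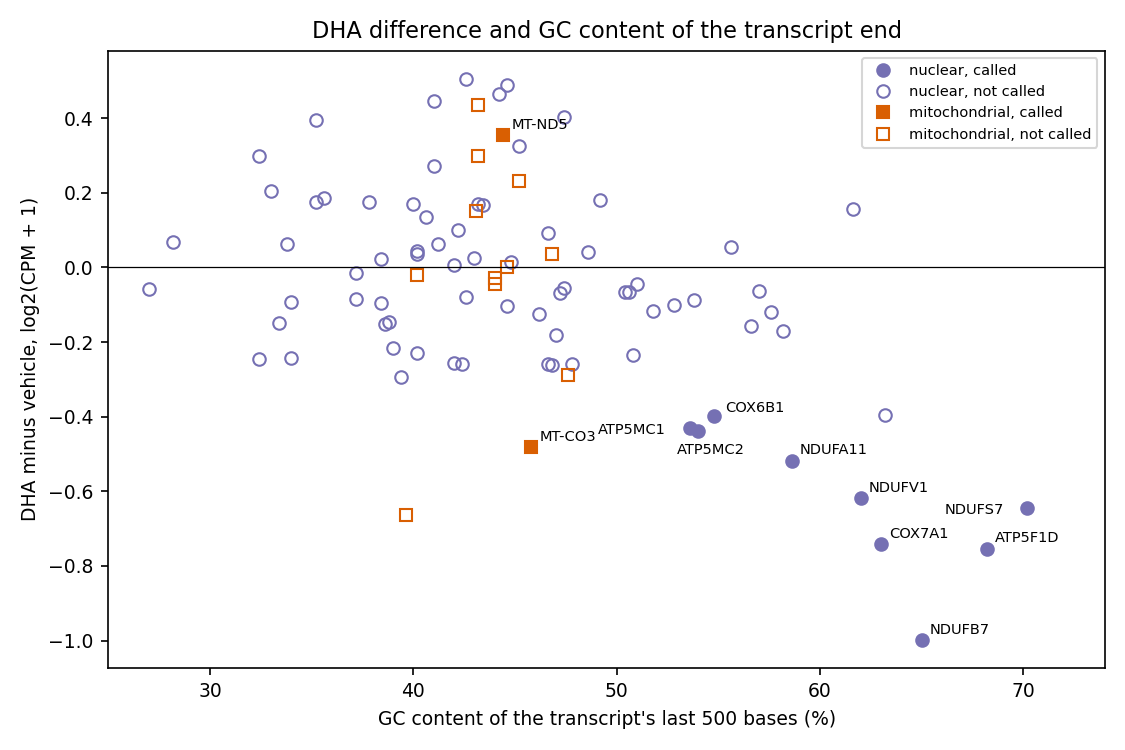
DHA minus vehicle on the log2(CPM + 1) scale against the GC content of the transcript's last 500 bases, for 77 nuclear members (circles) and 13 mitochondrial members (squares), filled where called. The 9 called nuclear members lie at 53.6% GC or above, and NDUFB7 is lowest at -0.998.

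Chromosome 19, which is GC-rich and dense in genes, carries 6 of the 9 nuclear members called lower after DHA: NDUFA11, NDUFB7, NDUFS7, COX6B1, COX7A1 and ATP5F1D. It carries 10 nuclear members in all, and NDUFA3, NDUFA13, UQCR11 and UQCRFS1 were not called. The median DHA difference of the 10 was -0.46, against -0.11 over 1059 genes tested on the chromosome, of which 7.27% were lower. This grouping too was seen after the calls were known and has no test.

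Genes that make, feed or regulate the complexes were read from lists beside the members. Of 5 chain components outside the symbol pattern, CYC1, the cytochrome c1 of complex III, was lower after DHA than after vehicle, at -0.61 (adjusted p = 0.00258, lower in 5 of 5 experiments). NDUFAB1, the acyl carrier protein that is also a complex I subunit, was higher by 0.46 (adjusted p = 0.0388, higher in 4 of 5), with a highest value of 634 CPM in a DHA library. CYCS, the electron carrier cytochrome c, and ATP5IF1, the inhibitor of the ATP synthase, were not called, with medians of 22.2 and 178 CPM after DHA and 21.2 and 178 CPM after vehicle. Of 52 assembly factors none was called, against the background of 10.7%. Of 18 tested genes of coenzyme Q synthesis and other electron entry, SQOR, which passes electrons from sulfide to coenzyme Q, was higher by 0.75 (adjusted p = 0.00479).

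Calls among genes for mitochondrial gene expression were set beside the 8.38% of all genes tested that were lower and the 2.33% that were higher. Of 29 genes for mitochondrial DNA and RNA upkeep none was called, with TFAM, the packaging and transcription factor, at -0.06 and the RNA polymerase POLRMT at 0.29 (adjusted p = 0.404). Of 72 tested mitochondrial ribosomal proteins 4 were lower (5.56%): MRPL28 at -0.79, MRPL12 at -0.75, MRPL54 at -0.64 and MRPL11 at -0.38, with adjusted p from 0.00324 to 0.0217. Of 10 tested biogenesis regulators YY1, a transcription factor of respiratory genes, was lower, at -0.54 (adjusted p = 0.00878), and NRF1 was at -0.22 (adjusted p = 0.47). PPARGC1A, the coactivator PGC-1α, averaged 0.175 CPM and was not tested.

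In the pathways that supply electrons, 2 of 14 citric acid cycle genes were lower after DHA than after vehicle, SUCLG1 at -0.42 (adjusted p = 0.0206) and IDH3G at -0.48 (adjusted p = 0.0309), and none of 11 tested genes of pyruvate entry was called. In a list of genes tied to hypoxia, the subunit paralogs COX4I2 and NDUFA4L2 were too low to be tested. Of the 5 tested genes on it, BNIP3, a mitophagy receptor, was higher by 1.35 (SE 0.15, adjusted p = 5.33e-07). It had 54.0, 95.4 and 113 CPM in DHA libraries, against 17.5, 40.9 and 47.7 CPM in vehicle libraries, with no overlap. BNIP3L, its relative, was higher by 0.44 (adjusted p = 0.0338) and PINK1, a kinase that marks damaged mitochondria, lower, at -0.40 (adjusted p = 0.0174), and these were the 3 called of 9 tested genes of mitophagy and mitochondrial dynamics. PDK1, a kinase that closes pyruvate entry, was at 0.71 (adjusted p = 0.0567). Among 6 tested ADP and phosphate carriers and porins none was called, and among 82 cytoplasmic ribosomal proteins 3 were (3.66%). Over all genes tested 10.7% were called in either direction, 8.38% lower and 2.33% higher.

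Other marker genes moved with DHA as well. Of 9 stellate markers tested 6 were lower and 1, TIMP1, was higher by 1.04, with a median difference of -0.71. Over all genes tested 8.38% were lower and 2.33% higher, with a median of -0.13. The summed stellate markers ran from 2116 to 3702 CPM after DHA and from 2041 to 4346 CPM after vehicle. Summed epithelial markers ran from 29.8 to 162 CPM after DHA and from 12.2 to 81.3 CPM after vehicle. CDH1 was the 1 called, higher by 1.28 (adjusted p = 0.0207), and EPCAM was under 1 CPM. The 4 tested epithelial markers had 2 positive and 2 negative estimates, with a median of 0.002. Summed leukocyte markers ran from 8.20 to 53.9 CPM after DHA and from 11.0 to 53.5 CPM after vehicle. CD14 was the 1 called, lower, at -1.19 (adjusted p = 0.00233), and LYZ, MS4A1 and CD3E were under 1 CPM. The 4 tested leukocyte markers had 2 positive and 2 negative estimates, with a median of 0.08. Summed endothelial markers ran from 1.34 to 10.6 CPM after DHA and from 0.296 to 7.39 CPM after vehicle, and hepatocyte markers from 0 to 4.65 CPM and from 0 to 1.56 CPM. Their part in the DHA differences of the members was not tested.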

How the data were processed

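The deposited table held CPM values for 61597 genes in 30 libraries, scaled by the authors to a sum of 1000000 per library. Per the submitters' processing notes, STAR 2.5.3a aligned the reads and HTSeq 0.6.0 counted them. Genome build, annotation release and use of strand are not given in the sources used here. Annotation was therefore matched by gene identifier: 61444 identifiers (99.8%) had a symbol, and 3202 were not in GENCODE v29, which gave biotype, chromosome and 3′ end. All columns of the table were used.

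Values were whole multiples of 1 read, within 0.01 read, for 100% of values in every library, and the recovered reads were used for depth and for an alternative test. The main test was limma 3.58.1 (trend) in R 4.3.3 on log2(CPM + 1), which understates changes of low genes. It covered the 15137 genes that reached 1 CPM in 5 or more libraries, in 1 fit of all 30 libraries with group and experiment as terms. Tests were two-sided and p-values were adjusted by Benjamini-Hochberg over all genes tested. Deviations from group means correlated in all 75 pairs of groups within an experiment (lowest r 0.119, median 0.507), and 30 of 30 libraries were closest to their own experiment, so the experiment was kept as a block. The script was tested on simulated data.

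Alternatives were edgeR 4.0.16 on the recovered reads, size factors from DESeq2 1.42.0, other pseudocounts, filters and totals, and left-out libraries and experiments. Quantile normalization, GC adjustment, single left-out libraries and averaging over BTC were added after seeing the data. Members and lists were chosen with earlier results of these data known. Named are the mitochondrial members, complex II, the paralogs, up to 10 called nuclear members per direction, the 5 smallest p-values where fewer than 5 were called, the 3 highest and lowest members of each complex, those near the threshold and up to 4 genes per list, with the exceptions stated. The values of 1 nuclear member are not reported here.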

Additional observations from a re-analysis of the deposited data

Results flagged for a closer look

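In 3 of 102 groups of 5 libraries examined, 1 library lay far from the other 4 by Dixon's test, which chance alone gives in about 1 in 20 groups. The ratio of mitochondrial to nuclear sum was 1.29 in Veh+Veh 1, against 0.992 to 1.05 in the other Veh+Veh libraries. NDUFB7 was at 737 CPM in Veh+Veh 3, against 62.1 to 223 CPM in the other 4. NDUFS7 was at 151 CPM in the same library, against 16.3 to 55.4 CPM in the others. Without Veh+Veh 3, NDUFB7 and NDUFS7 were still called lower in DHA against vehicle.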

How the results depend on the processing

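Without the replicate block no member was called in DHA against vehicle (0 nuclear, 0 mitochondrial) or in DHA against oleic acid (0 and 0), against 9 and 2, and 11 and 1, with the pairing by experiment. The block changed no call of a member in the oleic acid, BTC or interaction tests. For DHA against vehicle the nuclear count was 5 with median-of-ratios scaling, 5 in edgeR, 0 without the 3 shallowest libraries and 5 with libraries averaged over BTC. The mitochondrial count was 1 with median-of-ratios scaling, 1 in edgeR, 1 with GC-adjusted levels and 0 without the filter on low values, without the 3 shallowest libraries, with only the groups compared and with libraries averaged over BTC. For DHA against oleic acid the nuclear count was 7 with median-of-ratios scaling, 5 in edgeR, 1 without the 3 shallowest libraries, 7 with quantile normalization and 5 averaged over BTC, and the mitochondrial count was 2 with median-of-ratios scaling. With single libraries or experiments left out, nuclear counts ran from 2 to 11 and mitochondrial from 0 to 2 against vehicle, and from 2 to 14 and 0 to 2 against oleic acid. Nuclear counts were lowest without experiment 5, at 2 in each. The nuclear sum differed by 0.0957 (DHA minus vehicle) and 0.0208 (DHA minus oleic acid) on the log2 scale with median-of-ratios scaling. The cause of these changes was not tested. No called member changed sign: 133 of 506 repeats against vehicle and 113 of 552 against oleic acid lost the call. Depth limits members near the floor, such as UQCRHL at 7.49 CPM.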
